A study of Homo sapiens with 5 samples.

Results

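The cells described here were 849 cells of the D22 library, grouped under the name first glutamatergic-like neurons because they carried transcripts of RSPO3, CNTN2 and EOMES and few of the proliferation genes MKI67 and TOP2A. A barcode was kept with at least 1500 unique molecular identifiers (UMIs), at least 1000 detected genes and less than 20% of UMIs from mitochondrial genes. A kept barcode was a member with at least 5 UMIs of RSPO3, CNTN2 and EOMES together, at most 3 UMIs of NEUROD4 and NHLH1 together, at most 1 UMI of MKI67 and TOP2A together and 0 UMIs of DLX1, DLX2 and DLX5. The 849 members were 8.90% of the 9539 kept D22 cells, 12.4% of the 6842 D22 cells that passed the MKI67 and TOP2A limit (exact 95% interval 11.6 to 13.2%), and part of 29709 kept cells over D22, D24 and D26. The members were thus chosen by measured UMI counts of these 10 genes, so every contrast of members with other D22 cells is a description, and with 1 library per day no test between days or groups was possible.

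The study differentiated the human embryonic stem cell line WA09, labelled Wild Type and as neurons at all 3 days, toward neurons that make gonadotropin-releasing hormone (GnRH). All cells had received dual SMAD inhibition with dorsomorphin and SB431542 to form neural progenitors, then FGF8 to give them an anterior identity, then the Notch inhibitor DAPT from the day before the D22 collection; the treatment label itself is empty. Cells were dissociated with papain and 1 droplet library was made on each of D22, D24 and D26, so the day and the library cannot be told apart. The libraries held 131583840, 71397909 and 100865176 UMIs over all barcodes, with medians of 12183, 7180.5 and 8486 UMIs per kept cell.

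Inhibition of Notch pushes neural progenitors out of the cell cycle and into neurogenesis, a passage marked by a sequence of proneural transcription factors and then by the proteins that build the neuronal cytoskeleton and synapse. Glutamatergic neurons load glutamate into vesicles through vesicular transporters, of which SLC17A6 is the form used in much of the developing and subcortical brain, and early-born excitatory neurons of the telencephalon and olfactory forebrain express the T-box factors EOMES and then TBR1. CRH and TRH encode releasing peptides best known from the hypothalamus, although both are also made by neurons elsewhere in the brain.

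RSPO3 encodes a secreted R-spondin that amplifies Wnt signaling and lies at chr6:127118671-127199481 (ENSG00000146374, plus strand, build GRCh38). It was the gene that brought in most members, with a lowest value of 0, a median of 8 and a highest value of 38 UMIs per member cell. CNTN2 (ENSG00000184144, chr1:205042937-205078289, plus strand) encodes contactin 2, an adhesion protein of outgrowing axons, and had a median of 2 and a highest value of 15 UMIs per member. EOMES (ENSG00000163508, chr3:27715949-27722711, minus strand) had a median of 1 and a highest value of 14. The sum of the 3 genes ran from 5 through a median of 12 to 47 UMIs per cell. All 3 were detected together in 414 members (48.8%), RSPO3 with CNTN2 alone in 175 (20.6%) and RSPO3 with EOMES alone in 144 (17.0%). RSPO3 had no UMI in 33 members (3.89%).

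The group is a range cut from UMI counts with cells on either side of each limit, not a set of cells standing apart. Among D22 cells that met the other criteria, 87 had a sum of exactly 5 and were members, while 109 had a sum of 4 and were not. Several genes outside the rule stood close in these neighbors, with TBR1 at 80.5 CPM (UMIs per 1000000 UMIs of the group) just inside and 76.5 CPM just outside, and the non-canonical Notch ligand DLK1 at 3460 and 3446 CPM. CRH stood at 30.2 CPM inside and 10.5 outside. A further 1030 cells met every criterion except the limit on NEUROD4 and NHLH1, basic helix-loop-helix factors of newly formed neurons; these are called gate-positive NEUROD4/NHLH1-high cells here. Another 1835 cells exceeded that limit without reaching the RSPO3, CNTN2 and EOMES sum (gate-negative NEUROD4/NHLH1-high cells), 2253 were low on both counts, 875 carried a DLX UMI, and 2697 exceeded the MKI67 and TOP2A limit (dividing cells). Median depth was 11289 UMIs in the members, 12697.5 in the gate-positive and 12003 in the gate-negative NEUROD4/NHLH1-high cells, 11305 in the cells low on both and 11735 in the DLX cells. The members held 30 cells (3.53%) with a Scrublet doublet score of at least 0.25, against 5.44% of the gate-positive and 1.09% of the gate-negative NEUROD4/NHLH1-high cells, 0.755% of the cells low on both counts, 5.14% of the DLX cells and 9.08% of the dividing cells.

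The name of the group was borne out in part, since TBR1 was detected in most members and SLC17A6 in a minority of them. TBR1 (ENSG00000136535, chr2:161416297-161425870, plus strand), a T-box factor of early glutamatergic neurons, was summed to 186 CPM over the members (exact Poisson 95% interval 178 to 194) and had a UMI in 69.3% of them. SLC17A6 (ENSG00000091664, chr11:22338381-22379503, plus strand), the vesicular glutamate transporter VGLUT2, stood at 86.1 CPM (80.5 to 92.0) with a UMI in 46.2%. In the DLX cells, which stand for a population that should lack both genes, TBR1 had a UMI in 4.91% and SLC17A6 in 2.17% of cells. After each cell was thinned to 1500 UMIs, TBR1 was detected in 21.1% of members and 1.14% of DLX cells, and SLC17A6 in 11.4% and 0.686%. All intervals in the text cover counting error only, and not the spread between cells or cultures. The other vesicular glutamate transporters were nearly absent, with SLC17A7 at 3.14 CPM (2.15 to 4.43) and SLC17A8 at 0 UMIs (upper limit 0.362 CPM). NEUROD6, a factor of maturing cortical excitatory neurons, was also at 0 UMIs (upper limit 0.362 CPM). GAD2, an enzyme of GABA synthesis, was represented by 1 UMI (0.0981 CPM), and GNRH1 by 4 UMIs (0.392 CPM) against 62.0 CPM in the DLX cells. The rule left out every cell with a UMI of DLX1, DLX2 or DLX5. The study found GAD2 and GNRH1 in the same cluster as these DLX genes, so their low levels in the members are not independent of the rule.

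The promoter of TBR1 is shown because TBR1 had the largest ratio of the glutamatergic identity genes, with 10 CPM added, when the members were compared with the other non-dividing cells. The line gives the 250 bases before the RefSeq start (GRCh38.p14, plus strand, chr2:161416047-161416296), with each TAATTA, the core recognized by many homeodomain proteins, in capitals.
TBR1: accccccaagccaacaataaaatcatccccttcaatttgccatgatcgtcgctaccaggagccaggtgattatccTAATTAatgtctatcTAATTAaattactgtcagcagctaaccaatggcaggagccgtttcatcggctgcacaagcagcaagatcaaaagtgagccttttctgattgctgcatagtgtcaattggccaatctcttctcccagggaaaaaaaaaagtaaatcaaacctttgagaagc
The same 250-base window was searched on both strands for TAATTA, which is its own reverse complement, and for CAGATG, an E-box form bound by proneural factors; the 2 motifs do not overlap. TAATTA was present in 4.49% of all 27305 promoters in the RefSeq table, in 1.47% of the 2519 promoters of genes compared between the members and the other non-dividing cells, in 3 of 148 promoters of genes at least 2-fold higher in the members (2.03%) and in 2 of 48 of the lower genes (4.17%). CAGATG was present in 12.2% of all promoters, in 7.23% of the 2519, in 15 of the 148 (10.1%) and in 5 of the 48 (10.4%). The TBR1 window held 2 TAATTA and no CAGATG. These are matches of letters, not measured sites.

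Compared with the other 5993 non-dividing D22 cells, the members held more of many pan-neuronal and secretory granule genes and less of several genes of neural precursors. Of 3128 genes that reached 50 CPM in either group, 198 were at least 2-fold higher in the members after 10 CPM was added to both groups, which is 6.33% of the genes compared, and 65 were at least 2-fold lower, or 2.08%. The count of lower genes was 25 with a minimum of 3 UMIs of RSPO3, CNTN2 and EOMES, 99 with a minimum of 8, and 135 without the 212 members with the least STMN2. The rule itself fixed 3 of the higher genes and 2 of the lower ones. With the 2 groups scaled by the median of gene ratios in place of total UMIs, the same counts were 167 and 89. The share of higher genes among the calls thus depended on the scaling. The 30 genes with the largest and smallest ratios, chosen as the extremes of this comparison, kept their direction and their 2-fold difference under both scalings. All log2 values in this comparison carry the added 10 CPM and understate the ratio of low genes.

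**Figure D1:**
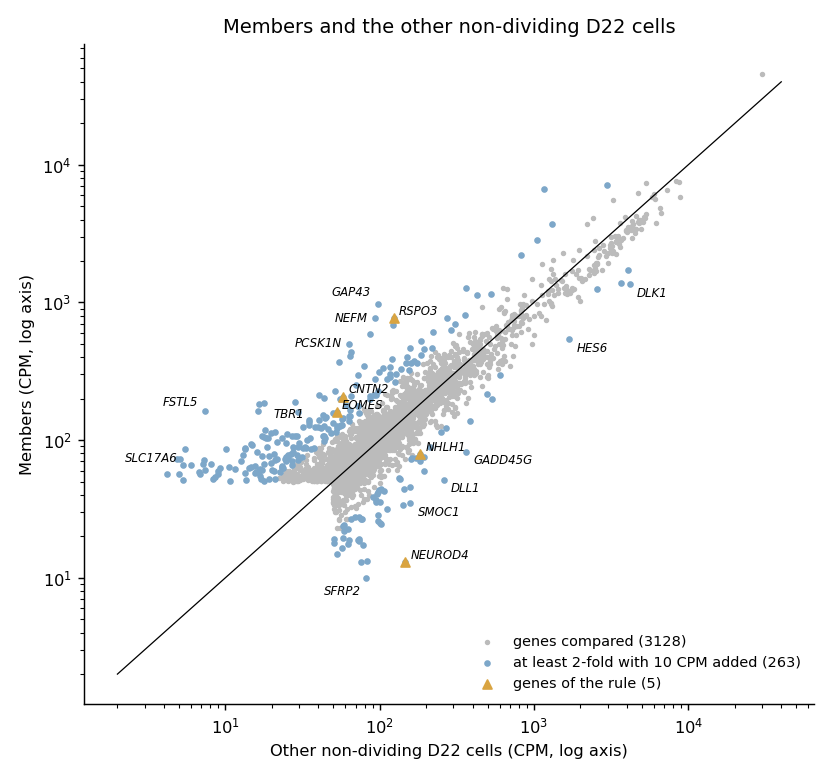
Summed expression of each compared gene in the 849 members (vertical, CPM, log axis) against the other non-dividing D22 cells (horizontal, CPM, log axis), with gray points for all 3128 genes, blue points for genes at least 2-fold apart after adding 10 CPM, and triangles for genes that the rule used. FSTL5 and GAP43 lie far above the line of equal values, and SFRP2, DLL1 and DLK1 lie below it.

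FSTL5, which encodes a secreted follistatin-like protein and lies at chr4:161383897-162164004 (ENSG00000168843), stood farthest apart, with 162 CPM in the members and 7.39 CPM in the other cells (log2 3.31). GAP43 (ENSG00000172020, chr3:115623510-115721490), a growth cone protein, followed at 981 against 98.1 CPM (log2 3.20). The intermediate filament genes NEFM and NEFL stood at 765 against 93.7 CPM and 406 against 63.9 CPM. PPP1R17 (ENSG00000106341, chr7:31687215-31708455), a phosphatase inhibitor that the study counted among its glutamatergic markers, was at 182 against 16.5 CPM. The microtubule regulators STMN2 and STMN4 were at 6656 against 1163 CPM and 370 against 54.2 CPM. The glutamatergic identity genes TBR1 (log2 2.81) and SLC17A6 (86.1 against 5.47 CPM) were also among the 15 genes with the largest ratios. PCSK1N, an inhibitor of prohormone processing (502 against 63.0 CPM), RTN1, a reticulon of neuroendocrine cells (587 against 86.0 CPM), TTC9B (162 against 16.3 CPM), GNG3, a G protein gamma subunit (438 against 65.6 CPM), AC010247.2, a noncoding gene annotated within POU2F2 on the other strand (73.1 against 4.83 CPM), and SAMD3 (72.4 against 5.08 CPM) made up the rest of the 15.

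At the other end, some of the 15 genes with the smallest ratios were those of progenitors and of cells in the act of becoming neurons. SFRP2 (ENSG00000145423, chr4:153780591-153789083), a secreted Wnt antagonist, had the smallest ratio, at 9.90 CPM in the members against 81.9 CPM (log2 -2.21). DLL1, the Notch ligand displayed by newborn neurons, was at 51.8 against 259.8 CPM, and the Notch-linked genes HES6 and DLK1 at 543 against 1688 CPM and 1355 against 4164 CPM. The growth arrest gene GADD45G was at 82.7 against 362 CPM. The cyclin CCND1 (33.8 against 142 CPM) and the progenitor factor SOX2 (45.6 against 157 CPM) were also lower. Others of the 15 were RGS16, SMOC1, ZFP36L1, VSX1, DIO3, GPC3 and SPARC, whose log2 values ran up to -1.56 for SPARC.

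Gene lists gave the same division with less dependence on single genes. Of 19 pan-neuronal genes with at least 50 CPM, 15 were at least 2-fold higher in the members and none lower, with a median log2 of 1.77 against 0.05 over all genes compared; MAP2, a dendritic microtubule protein, stood at 693 against 309 CPM, and DCX, a migration protein, at 919 against 463 CPM, just short of 2-fold with 10 CPM added. Of 13 neuronal precursor genes that reached 50 CPM, 8 were lower (among them BTG2, HES6, NEUROG1, DLL1, GADD45G, DLK1 and SSTR2) and none higher, with a median of -1.04. The progenitor list was not uniform: NES, SOX2 and VIM were lower, while FABP7, a fatty acid binding protein of radial glia that some neurons also express, was higher at 342 against 117 CPM. Of the genes that load and process neuropeptides in secretory granules, 8 of the 11 that reached 50 CPM were higher (SCG2, PAM, PCSK1N, CHGA, SCG5, SCG3, CHGB and PCSK2) and none lower. PAM, which amidates peptide hormones, stood at 108 against 26.99 CPM, and SCG2, a granin, at 150 against 64.4 CPM.

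The identity lists were mixed, and their counts stand beside 6.33% of all compared genes that were higher and 2.08% that were lower. Among 4 glutamatergic identity genes that reached 50 CPM, TBR1 and SLC17A6 were higher and FEZF2, a forebrain zinc finger factor, was lower (139 against 387 CPM). Of 9 genes from the study's own glutamatergic markers, 6 were higher (SAMD3, PPP1R17, LHX2, LHX5-AS1, LHX1 and POU2F2); that list was drawn up on these samples and is not independent evidence. LHX1, a LIM homeodomain factor, was at 108 against 17.2 CPM, LHX2 at 466 against 219 CPM and POU2F2 at 227 against 51.6 CPM, whereas LHX9 was at 238 against 156 CPM and did not reach 2-fold. RELN, the extracellular protein made by Cajal-Retzius neurons, was higher (92.3 against 14.9 CPM) but PCP4 of the same list was lower (35.3 against 99.9 CPM). Of 6 dorsal and medial forebrain factors that reached 50 CPM none was higher, and DMRTA1 and PAX6 were lower (PAX6 43.1 against 99.7 CPM). Of 15 contactins and their partners, the 5 that reached 50 CPM (among them NFASC, NRCAM, CNTNAP2 and NCAM1) were all higher, with NFASC at 78.2 against 13.1 CPM and NCAM1 at 140 against 40.4 CPM. Markers of other cells were low: no gene of the multiciliated, glial, neural crest or endothelial lists reached 50 CPM, and their summed levels in members and other cells were 54.6 and 43.3, 27.7 and 24.7, 9.8 and 21.6, and 20.5 and 25.6 CPM. Reads of TBR1 and SLC4A10, of LHX2 and LHX2-AS1, of LHX5 and LHX5-AS1, of POU2F2 and its antisense genes, of GNG3 and BSCL2, and of SOX2 and SOX2-OT come from overlapping annotations, and whether the counting used strand is not given in the sources used here.

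TRH UMIs were detected in most members, whereas CRH UMIs were concentrated in a small number of cells. TRH (ENSG00000170893, chr3:129974688-129977935, plus strand), thyrotropin-releasing hormone, stood at 295 CPM (285 to 306) in the members, with a UMI in 586 of 849 cells (69.0%) and a highest value of 30 UMIs. It was not confined to them, since the DLX cells held 61.3 CPM and a UMI in 29.0% of cells; after thinning to 1500 UMIs the shares were 28.3% and 8.11%. CRH (ENSG00000147571, chr8:66176376-66178464, minus strand), corticotropin-releasing hormone, stood at 43.0 CPM (39.1 to 47.3) with a UMI in 115 members (13.5%), against 6.35 CPM and 0.571% of DLX cells; the thinned shares were 3.65% and 0.343%. Its 439 UMIs were concentrated: 24 cells with at least 5 UMIs held 65.1% of them, and 1 cell held 34. For TRH the 236 cells with at least 5 UMIs held 75.4% of 3010 UMIs. The highest CRH value in a single cell was larger among the DLX cells, at 53 UMIs, than among the members, at 34.

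Most members with a CRH UMI also had a TRH UMI. Of 115 members with a CRH UMI, 104 also had a TRH UMI (90.4%, exact interval 83.5 to 95.1%), against 482 of 734 without one (65.7%, 62.1 to 69.1%), at median depths of 11754 and 11190.5 UMIs. Members with a CRH UMI carried 523 CPM of TRH against 257 CPM in those without, and 61.6 against 23.9 CPM of NTS, which encodes neurotensin (ENSG00000133636, chr12:85874295-85882992). They also carried more STMN2 (8686 against 6312 CPM) and less DLK1 (299.9 against 1534 CPM), while PPP1R17 was at 182 CPM in both. Among the 637 members with the most STMN2, 101 of 111 cells with a CRH UMI had TRH (91.0%) against 387 of 526 without (73.6%). In the D24 cells of the same rule the shares were closer, at 207 of 282 (73.4%) and 2050 of 3312 (61.9%). Apart from TRH, no listed peptide precursor reached 50 CPM, but ADCYAP1 and HCRT had a UMI in more members than CRH. ADCYAP1, which encodes the peptide PACAP, stood at 32.8 CPM with a UMI in 27.1% of members, and HCRT, the orexin precursor, at 30.2 CPM in 25.7%, against 13.6 CPM in the DLX cells. Receptors for the releasing peptides were at or near 0, with CRHR1 at 1 UMI, CRHR2 at 2 UMIs and TRHR at 0 UMIs.

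Set beside the neighboring D22 groups, the members had the highest summed levels of TBR1, SLC17A6, PPP1R17, SAMD3 and CRH, but not of every glutamatergic identity gene. FEZF2 and NEUROD1 were higher in the gate-positive NEUROD4/NHLH1-high cells (285 against 139 CPM and 241 against 97.4 CPM). The ranking is of whole groups that differ in STMN2. Among cells with at least 6000 CPM of STMN2, PPP1R17 was lower in the members than in the cells low on both counts (270.5 against 600.2 CPM). CRH was higher in the members there (64.8 against 28.8 CPM). From the gate-negative NEUROD4/NHLH1-high cells through the gate-positive ones to the members, STMN2 stood at 800, 2538 and 6656 CPM, TBR1 at 1.91, 57.3 and 186 CPM, and SLC17A6 at 0.434, 16.9 and 86.1 CPM. PPP1R17 was at 4.78 and 16.1 CPM in the first and second of these and at 182 CPM only in the members, and SAMD3 at 0.391, 5.12 and 72.4 CPM. CRH showed the same order, at 0.261, 2.14 and 43.0 CPM, whereas TRH was already at 77.0 and 100.2 CPM before reaching 295 CPM. Genes of precursors ran the other way, with DLK1 at 4638, 3499 and 1355 CPM, the proneural factor NEUROG1 at 801, 793 and 296 CPM, and the somatostatin receptor SSTR2 at 264, 254 and 74.4 CPM. This order is of groups cut by UMI counts in 1 library and not of the same cells followed over time.

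**Figure D2:**
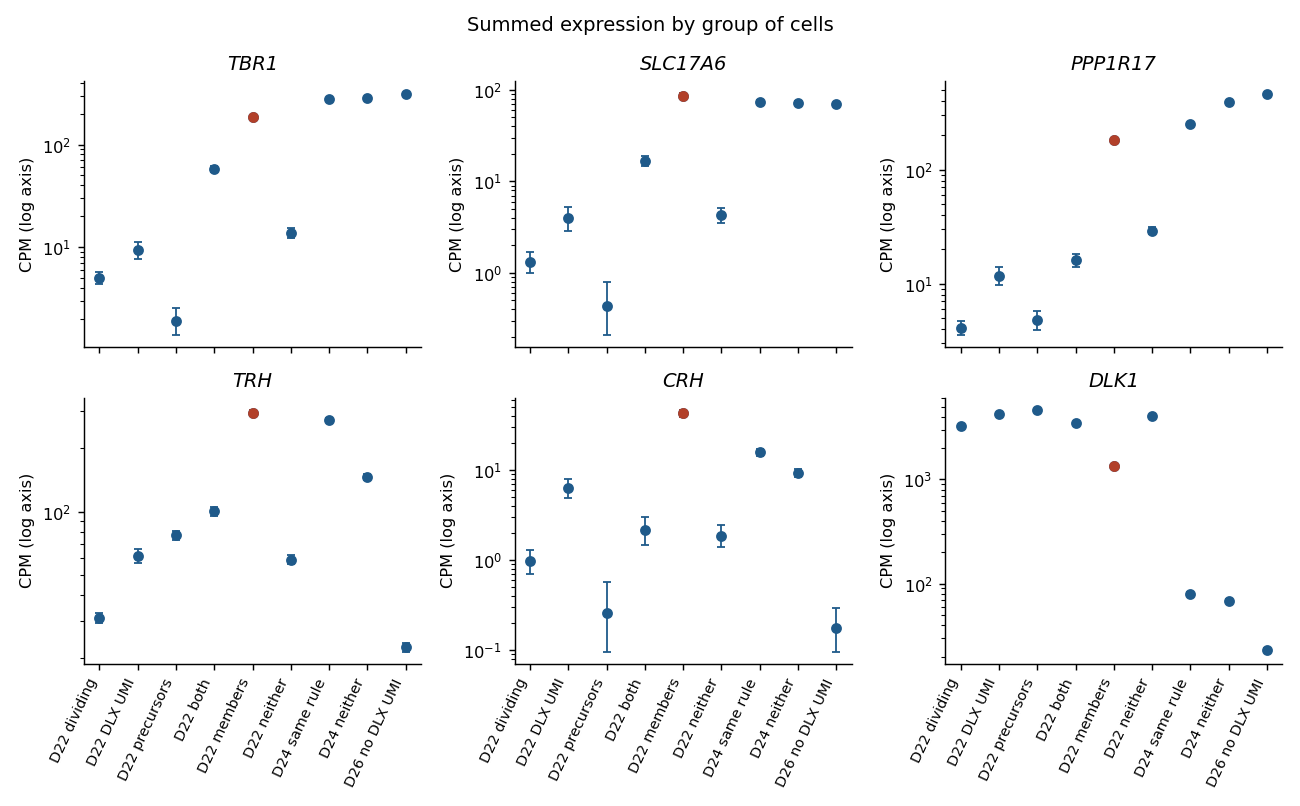
Summed expression of TBR1, SLC17A6, PPP1R17, TRH, CRH and DLK1 (vertical, CPM, log axis) in 9 groups of cells, with error bars giving exact Poisson 95% intervals that cover counting error only. Precursors are the gate-negative and both the gate-positive NEUROD4/NHLH1-high cells, neither are the cells low on both counts, and the D22 members are in red. CRH was highest in the D22 members (43.0 CPM), while DLK1 was lower there (1355 CPM) than in the cells labelled precursors and both.

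Against the 1030 gate-positive NEUROD4/NHLH1-high cells alone, 111 of 3112 genes were at least 2-fold higher in the members (3.57%) and 40 were lower (1.29%), of which the rule fixed 2 lower genes, NEUROD4 and NHLH1. The higher genes again held 11 of 20 pan-neuronal genes (median log2 1.10, against 0.02 over all genes) and 6 of 11 granule genes (median 1.03), with TBR1, SLC17A6 and TRH. The lower genes held HES6, NEUROG1, DLK1 and SSTR2 and, from the identity list, NEUROD1 (97.4 against 241 CPM). JUN, an immediate early factor, was higher in the members in both comparisons, at 124 CPM against 32.0 CPM in all other non-dividing cells and 31.3 CPM in the gate-positive NEUROD4/NHLH1-high cells.

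STMN2 per cell showed that the members were spread over a wide range. Members had a median of 7705 CPM, the gate-positive NEUROD4/NHLH1-high cells 2194 CPM and the gate-negative ones 537 CPM. Below 2000 CPM of STMN2 lay 136 members, and 234 members lay between 8000 and 10000 CPM. The groups overlapped, since 80 gate-positive NEUROD4/NHLH1-high cells had at least 6000 CPM.

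**Figure D3:**
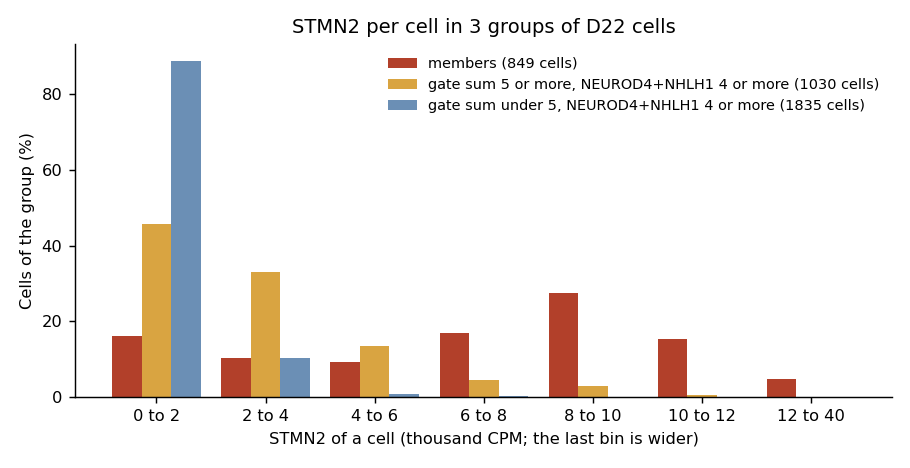
Percent of cells (vertical, bars from 0) in each bin of STMN2 per cell (horizontal, CPM) for the 849 members, the 1030 gate-positive cells (both) and the 1835 gate-negative NEUROD4/NHLH1-high cells (precursors). Member cells fall in every bin and are most frequent from 8000 to 10000 CPM, whereas 1631 of the 1835 precursors lie below 2000 CPM.

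The 212 members with the least STMN2 did not carry the profile that the group's name implies. Their STMN2 stood at 1492 CPM against 8505 CPM in the other 637 members, and DLK1 at 4067 against 384 CPM. NEUROG1 was at 735 against 139 CPM, HES6 at 1560.1 against 179 CPM and SOX2 at 139.5 against 12.0 CPM. The levels of DLK1, HES6 and SOX2 in these 212 cells were near those of the non-dividing cells outside the group (4164, 1688 and 157 CPM). TBR1 was at 32.0 against 241 CPM, SLC17A6 at 10.0 against 113 CPM and PPP1R17 at 11.2 against 243 CPM. CRH was at 5.21 against 56.6 CPM, TRH at 111 against 361 CPM and NTS at 2.60 against 38.9 CPM. Of the 3 genes whose sum chose the members, RSPO3 was at 340 against 920.2 CPM, CNTN2 at 158 against 224 CPM and EOMES at 144 against 164 CPM. Taking DLK1 per cell, the median member had 197 CPM and the highest 11481 CPM. CCNO, a gene of multiciliated cell differentiation, had 143 UMIs in only 27 members, 49 of them in 1 cell.

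Across 4 groups of members ordered by STMN2 the change was steep at the bottom and small at the top. DLK1 stood at 4067, 830.5, 171 and 134 CPM from the least to the most STMN2, and FEZF2 at 380.2, 102, 26.7 and 25.8 CPM. TBR1 stood at 32.0, 193, 264 and 268 CPM and SLC17A6 at 10.0, 87.1, 112 and 142 CPM. The counting intervals of TBR1 overlapped between the third and the fourth group. GAP43 stood at 104.5, 793, 1441 and 1675 CPM. CRH was at 5.21, 30.5, 68.3 and 72.0 CPM.

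**Figure D4:**
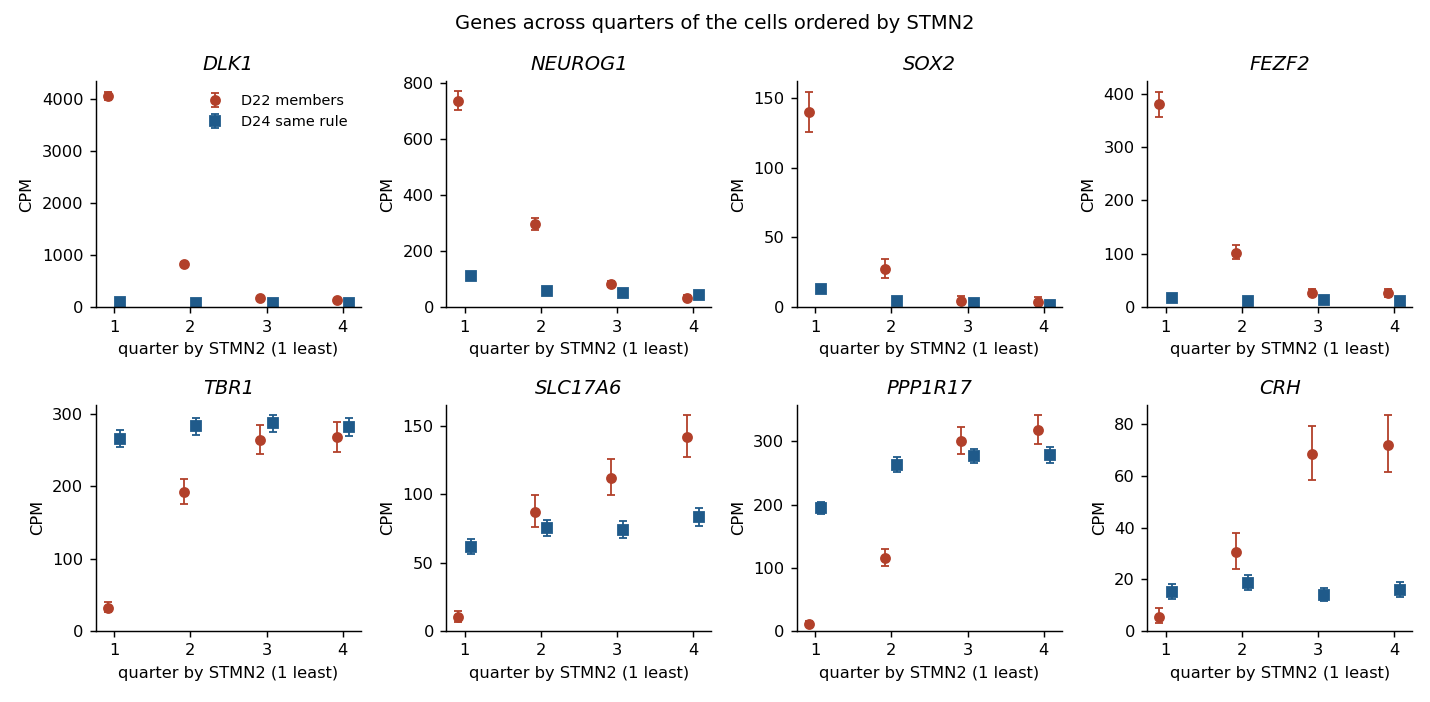
Summed expression (vertical, CPM from 0) of 8 genes in 4 groups of cells ordered by STMN2 per cell (horizontal, 1 is the least), for the D22 members in red circles and the D24 cells of the same rule in blue squares, with exact Poisson 95% intervals as error bars (counting error only). DLK1, NEUROG1, SOX2 and FEZF2 are high in the first D22 group alone or fall from it, while the D24 groups differ little from one another. The groups were cut within each day, with the first ending at 3792 CPM of STMN2 at D22 and 7870 CPM at D24.

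With STMN2 held to the same range, fewer genes separated the members from other cells. From 4000 to 8000 CPM of STMN2, 222 members and 185 gate-positive NEUROD4/NHLH1-high cells differed at least 2-fold in 11 genes that were higher (0.355% of 3099) and 7 that were lower (0.226%), of which the rule fixed NHLH1. Higher were PPP1R17 (134 against 38.6 CPM), SAMD3 (66.6 against 18.5 CPM), FSTL5 (124 against 49.8 CPM), LHX1 (119 against 50.7 CPM) and FABP7 (293 against 137 CPM), with the granule genes PCSK1N, SCG2 and SCG5. DLK1 was lower (710.5 against 1491 CPM), as was CRABP1, a retinoic acid binding protein (212 against 435 CPM). No pan-neuronal gene of 20 reached 2-fold there with 10 CPM added (median log2 0.30, and 0.02 over all genes). These 20 include STMN2, the gene on which both groups were selected. Within this range STMN2 was still not equal, at 6277 CPM in the members against 5376 CPM in the gate-positive NEUROD4/NHLH1-high cells. Its log2 ratio was 0.22 (counting interval 0.19 to 0.26). ANK3, an ankyrin of the axon initial segment, came close at 137 against 63.5 CPM.

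Among cells with at least 6000 CPM of STMN2, 547 members were set against 111 cells low on both counts, where 17 of 3237 genes were higher in the members (0.525%) and 13 lower (0.402%). The rule fixed RSPO3, CNTN2 and EOMES among the higher genes; NHLH1, whose limit both groups met, was also higher (61.0 against 14.9 CPM). NEUROG1 (82.8 against 18.6 CPM), FEZF1, a zinc finger factor of olfactory and hypothalamic development (93.4 against 31.6 CPM), GNG8, a G protein subunit of immature olfactory neurons (470.4 against 188 CPM), and NNAT, an imprinted neuronal gene (7693 against 3431 CPM), were higher. PPP1R17 was lower in the members here (270.5 against 600.2 CPM), as were PAX6 (19.6 against 67.9 CPM), MEIS2 (83.0 against 233 CPM) and the adhesion gene CHL1 (8.85 against 53.0 CPM). TBR1 did not separate the groups, at 259 and 289 CPM. CRH was at 64.8 against 28.8 CPM and TRH at 385 against 212 CPM. None of 20 pan-neuronal genes, STMN2 among them, and none of 11 granule genes differed 2-fold. Their median log2 values were -0.13 and -0.19, against -0.04 over all genes. Of 8 contactins and partners at 50 CPM none was higher and CHL1 was lower (median -0.55).

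The members with the most STMN2 were also split by detection of CNTN2 and of EOMES. Both genes are part of the rule, and a member without one of them must reach the sum of 5 through the others, so these splits are conditioned on the rule and are given as a description. Among the upper 637, 481 had a CNTN2 UMI and 156 did not, at median depths of 11282 and 10798 UMIs. CRH stood at 70.1 CPM in the former and 11.6 CPM in the latter (405 against 20 UMIs, log2 2.60 with a counting interval of 1.95 to 3.33). Over all members the log2 ratio of CRH was 2.77, and it was 1.31 (0.74 to 1.92) when cells were thinned to 5000 UMIs before the rule was applied, which also changed the members; the cause was not tested. TRH was at 402 against 223 CPM. PPP1R17 ran the other way, at 197 CPM with CNTN2 and 399 CPM without, as did ONECUT3, a cut homeodomain factor, at 22.1 against 47.4 CPM. STMN2 was at 8450 and 8691 CPM and TBR1 at 237 and 256 CPM in the cells with and without CNTN2, the cells having been selected on STMN2. Split by an EOMES UMI instead (444 cells with and 193 without), NTS was at 28.5 CPM with and 63.6 CPM without, PPP1R17 at 194 against 359.7 CPM, and NEUROG1 at 167 against 73.0 CPM.

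**Figure D5:**
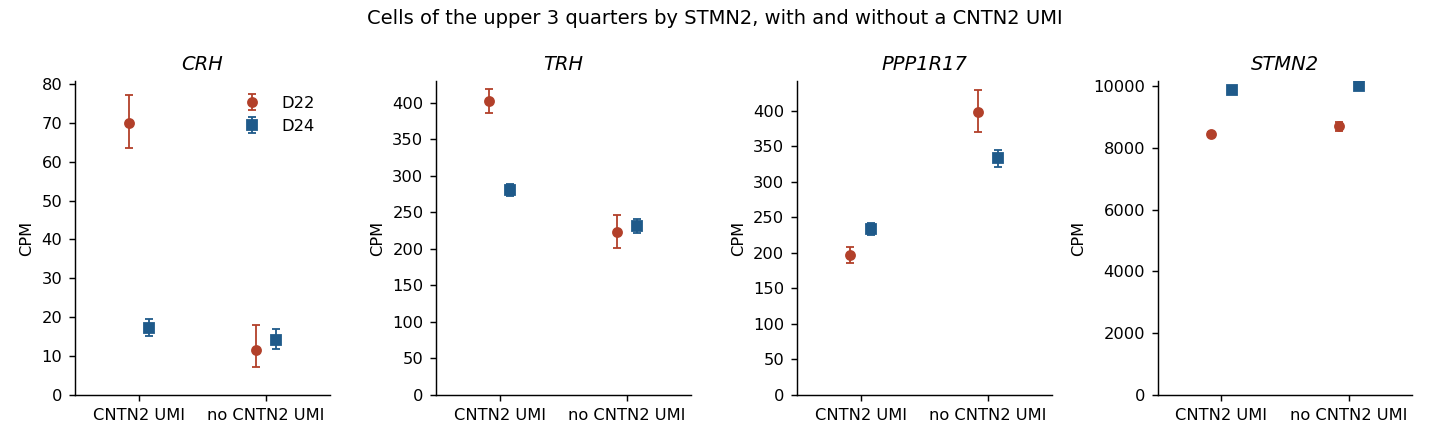
Summed expression (vertical, CPM from 0) of CRH, TRH, PPP1R17 and STMN2 in cells with and without a CNTN2 UMI (horizontal), with exact Poisson 95% intervals (counting error only). Shown are the upper STMN2 cells, taken within each day, of the D22 members (red) and of the D24 cells of the same rule (blue). CRH is at 70.1 and 11.6 CPM at D22 but 17.3 and 14.2 CPM at D24.

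The same rule selected 3594 of 9051 non-dividing cells at D24 (39.7%, exact interval 38.7 to 40.7%) and 49 of 11048 at D26 (0.444%). The D24 share was 56.5% with a minimum of 3 UMIs of RSPO3, CNTN2 and EOMES, 20.95% with a minimum of 8, and 25.9% after cells were thinned to 5000 UMIs, so the interval above does not cover the choice of limits. Median depth of the selected cells was 7841 UMIs at D24 and 10289 at D26. RSPO3 stood at 767 CPM at D22, 819 CPM at D24 and 509.7 CPM at D26 within the selected cells, and EOMES at 159, 91.8 and 24.8 CPM. The rule set a minimum for the sum of RSPO3, CNTN2 and EOMES in UMIs, and depth differed between the days. The levels of RSPO3 and EOMES in the selected cells thus follow in part from the rule and are not a result about the days. In all D26 cells without a DLX UMI, RSPO3 was at 13.5 CPM, TRH at 22.5 CPM and CRH at 0.179 CPM, while TBR1 was at 313 CPM, SLC17A6 at 70.1 CPM and PPP1R17 at 465 CPM. These D26 cells were not chosen for RSPO3, CNTN2 or EOMES, so their values and those of the D22 members stand side by side without a comparison.

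DLK1 and HES6, genes of the neuronal precursor list, had the smallest ratios of the D24 cells of the same rule over the D22 members with 10 CPM added. In this comparison 9 of 3037 genes were at least 2-fold higher at D24 (0.296%) and 59 were lower (1.94%). DLK1 (ENSG00000185559, chr14:100725705-100738224) was at 79.7 CPM against 1355 CPM (log2 -3.93 with 10 CPM added), HES6 at 29.3 against 543 CPM, FEZF2 at 13.4 against 139 CPM and SSTR2 at 4.12 against 74.4 CPM. The D22 level of DLK1 came largely from the 212 members with the least STMN2. In the upper STMN2 cells alone DLK1 was at 75.2 CPM at D24 against 384 CPM at D22. These cells were taken within each day, from 3792 CPM of STMN2 at D22 and from 7870 CPM at D24, so their STMN2 was not matched. In all, 8 of 11 neuronal precursor genes were lower. SAMD3 (159 against 72.4 CPM), LHX1 (226 against 108 CPM), MGAT4C, a glycosyltransferase gene (87.3 against 10.98 CPM), and TUBB2A, a beta tubulin with near-identical family members (1619 against 689 CPM), were among the higher genes. None of 20 pan-neuronal genes and none of 11 granule genes reached 2-fold, with medians of 0.25 and -0.03 against -0.07 over all genes.

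CRH was lower at D24, at 15.8 CPM against 43.0 CPM (log2 ratio -1.45, counting interval -1.64 to -1.26). Restricted to the upper STMN2 cells of each day, CRH stood at 16.1 CPM at D24 against 56.6 CPM at D22. The lower limits of STMN2 for these cells differed, at 3792 CPM at D22 and 7870 CPM at D24. At D24 the 487 CRH UMIs lay in 282 cells (7.85%), with a highest value of 9, at a lower median depth (7841 against 11289 UMIs). The top 180 of the 3594 D24 cells held 79.1% of the CRH UMIs, and the top 42 of the 849 D22 members held 77.9%. TRH was close at both days (272 and 295 CPM), and TBR1 was at 279.7 against 186 CPM. NTS stood at 51.8 against 29.3 CPM and ADCYAP1 at 67.5 against 32.8 CPM. The split by a CNTN2 UMI at D24 was made in the 2695 upper STMN2 cells of that day, 1579 with and 1116 without. It gave CRH at 17.3 and 14.2 CPM (log2 0.29, -0.02 to 0.61), so that the counting interval included 0. TRH was at 280.5 and 231 CPM, and PPP1R17 at 233 and 333 CPM. GNRH1 stood at 38.0 CPM in the D24 cells of the rule, in a library whose DLX cells held 14183 CPM, and its part in any level was not tested. The D22 and D24 libraries shared 27 cell barcodes, and 1 member barcode was also present at D24 and 7 at D26.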

How the data were processed

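Single cells of the D22, D24 and D26 cultures were profiled with droplet 3′ RNA sequencing, 1 library per day and no replicate; a pooled library of earlier days was not used here. The authors deposited filtered matrices of UMI counts, whole numbers per gene and barcode, made with Cell Ranger 3.1 on GRCh38 according to the submitters' processing notes (3.1.0 in the matrix headers). From these counts the barcodes were filtered as stated, giving 9539, 9110 and 11060 kept cells of 9824, 9905 and 12171. Counts were summed over the cells of a group and divided by the group's total UMIs (CPM). Intervals are exact Poisson for CPM, exact Clopper-Pearson for shares and an exact binomial split for ratios, all at 95%. Genes with at least 50 CPM in 1 group were compared, with 10 CPM added to both; the 15 largest and 15 smallest ratios without the 10 genes of the rule are named, with members of 26 fixed lists (369 genes). Some of the genes so chosen are not reported here. Scrublet scores came with scanpy 1.11.5, and doublets were not removed. Positions are from GENCODE 44, where 417 of 417 gene identifiers matched, and the promoter from RefSeq. The scripts (Python 3.11.15, numpy 2.4.6, scipy 1.17.1, pandas 2.3.3, matplotlib 3.10.9) were checked on simulated counts. The members and the lists were chosen with earlier results of these data known, and the groups by STMN2, CNTN2 and EOMES were chosen after values were seen. Alternatives were other limits of the rule, thinning, scalings, filters and added CPM.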

Additional observations from a re-analysis of the deposited data

How the results depend on the processing

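No paired analysis was possible because each day had 1 library. The share of non-dividing D22 cells in the group (12.4%) was 16.3% with a minimum of 3 UMIs of RSPO3, CNTN2 and EOMES, 9.35% with a minimum of 8, 10.7% after thinning cells to 5000 UMIs and 9.31% without the members with the least STMN2. The D24 share (39.7%) was 56.5%, 20.95% and 25.9% under the first 3 of these. The genes compared rose from 3128 to 8268 with a minimum of 10 CPM and to 23966 with none. The 198 higher genes became 325 and the 65 lower genes 107 under both of these filters. The lower genes became 25 and 99 with minimums of 3 and 8 UMIs, and 135 without the members with the least STMN2. The log2 ratio of CRH between all members with and without a CNTN2 UMI (2.77, 2.13 to 3.47) was 1.31 (0.74 to 1.92) after thinning to 5000 UMIs. Scaling by the median of ratios moved the median of all genes from 0.05 to -0.08. The wider filters admitted more genes, and the cause of the other changes was not tested. The 30 genes with the largest and smallest ratios kept a 2-fold difference in all 13 alternatives run for them, and none of them changed direction. They were chosen as the extremes of the same comparison, so this is not an independent check. Depth limits which cells reach a rule written in UMIs.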

Other observations

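Counts of list genes below stand beside 6.33% of all genes compared that were higher in the members than in the other non-dividing D22 cells and 2.08% that were lower. Of 17 factors of hypothalamic peptide neurons 6 had 0 UMIs in the members and 2 reached 50 CPM in either group, of which ONECUT2 was at least 2-fold higher (112 against 48.6 CPM in the other non-dividing D22 cells). OTP and SIM1, which specify CRH and TRH neurons of the paraventricular nucleus, stood at 0.588 and 2.94 CPM. The related cut factors ONECUT1 and ONECUT3 stood at 55.2 against 26.8 CPM and 20.8 against 1.11 CPM. Of 30 neuropeptide precursors, TRH alone reached 50 CPM and 9 had 0 UMIs; POMC was at 4.02 CPM in the members and 28.6 CPM in the gate-negative NEUROD4/NHLH1-high cells, and GAL, which encodes galanin, at 2.25 against 0.12 CPM in the other non-dividing cells.

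Other genes of the R-spondin pathway were sparse in the members. RSPO1 was at 5.49 CPM and RSPO2 at 0.196 CPM in the members, and the R-spondin receptors LGR4 and LGR5 at 1.86 and 0.392 CPM. Of 25 R-spondin and Wnt genes 3 reached 50 CPM, and of these SFRP2 was lower and none was higher. Of 27 axon guidance genes 8 reached 50 CPM; SLIT1, a repellent ligand (61.7 against 11.5 CPM), and DCC, a netrin receptor (364 against 159 CPM), were higher and PLXNA2 was lower (15.0 against 52.6 CPM). Of 13 glutamate receptor and synapse genes, the 2 that reached 50 CPM, NSG2 and SYP, were higher, with SYP, a synaptic vesicle protein, at 107 against 43.9 CPM. GNG8 was the higher one of 2 immature olfactory neuron genes at 50 CPM (418 against 187 CPM), and OMP, the marker of mature olfactory neurons, had 0 UMIs. Of 12 peptide receptors only SSTR2 reached 50 CPM, and it was lower.

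Among 14 stress and dissociation genes JUN was the higher one of 3 at 50 CPM, while FOS stood at 0.981 CPM. Of 15 cell cycle genes outside the rule, CENPF and CCNB2 were lower of 3 at 50 CPM. In the lists of GABAergic and GnRH, IRX and pluripotency genes, 1 gene each reached 50 CPM and none differed 2-fold.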
